A study of Danio rerio with 12 samples.

Results

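The genes described here carry signals of the Wnt pathway: the Wnt ligands, their Frizzled and Lrp receptors, the secreted Dickkopf and Sfrp antagonists, and the pathway proteins Axin and Lef1. They were chosen by name. A row of the gene table was taken when its Ensembl symbol, in any case, began with wnt, fzd, dkk or sfrp and a digit, or with axin1, axin2, lef1, lrp5 or lrp6. This gave 55 of the 32520 genes in the table, of which 26 were ligands, 14 Frizzled receptors, 2 co-receptors (LRP5 and LRP6), 5 Dickkopf genes, 5 Sfrp genes, 2 Axin genes and 1 LEF1 gene. At least 1 read was counted for 50 of them, and 33 held enough reads to be tested. Symbols are spelled as in the table, many as their human counterparts, and the 16 genes that share a symbol with another are given with their Ensembl ID.

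RNA came from whole zebrafish embryos at 12 hours post fertilization, an early somite stage, and was sequenced as total RNA. The 4 groups had 3 libraries each: H2A.Z overexpression with 5AzadC, H2A.Z overexpression with DMSO, wild type with 5AzadC and wild type with DMSO. H2A.Z is a histone variant, and the H2A.Z overexpression samples are titled H2A.ZmCherry, a fusion to a red fluorescent protein. 5AzadC (5-aza-2′-deoxycytidine) is a cytidine analogue that traps DNA methyltransferases. It was given at 100 µM in 5 mL, to about 50 eggs per well, from shortly after spawning. The solvent controls received 0.1% DMSO, and the adult stock was AB/Tuebingen. The labels do not say which promoter drives the fusion, how many lines carry it or whether libraries came from separate clutches, so p-values measure the spread between these libraries only.

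A Wnt ligand binds a Frizzled receptor together with Lrp5 or Lrp6. This stops the destruction complex, of which Axin is the scaffold, from degrading β-catenin, which then enters the nucleus and activates genes together with Tcf and Lef factors. Sfrp proteins bind the ligands themselves, while some Dickkopf proteins, Dickkopf1 among them, block the co-receptors. In the early zebrafish embryo the pathway first helps to set the dorsal side and later favours posterior over anterior neural fates, and a branch that does not use β-catenin guides the convergence and extension of the body axis.

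Library totals ran between 1142051 and 1904063 counts, so that 1 count was worth 0.521 to 0.923 CPM (counts relative to library size, scaled by TMM factors). In wild type every 5AzadC library (1142051 to 1406110 counts) was smaller than every DMSO library (1535951 to 1740059 counts). At this depth 10 of 14 Frizzled genes and 15 of 26 ligand genes could be tested. The chosen genes took 0.192% to 0.208% of the counts in H2A.Z overexpression embryos with 5AzadC, 0.238% to 0.244% in those with DMSO, 0.204% to 0.211% in wild type with 5AzadC and 0.228% to 0.241% in wild type with DMSO. The share was thus below the DMSO libraries in every 5AzadC library of both genotypes. As a check of the labels, h2az2b (ENSDARG00000116491) averaged 473 CPM in H2A.Z overexpression embryos and 394 CPM in wild type, both with DMSO (log2 fold change 0.27 ± 0.092, SE, adjusted p 0.0746). Of the 2 H2A.Z genes tested in this contrast, 1 had an estimate above 0 and 1 below, and neither passed. No label says whether reads of the fusion were counted under either gene, so their levels do not check the genotype.

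Most of the tested Wnt genes lay lower with 5AzadC in H2A.Z overexpression embryos, but few passed the test. In H2A.Z overexpression embryos 8 of 33 passed at an adjusted p under 0.05 (24.2%), 1 higher and 7 lower with 5AzadC, where 17.9% of all 12293 tested genes passed, 8.84% higher and 9.03% lower. In wild-type embryos 9 of 33 passed (27.3%), 3 higher and 6 lower, where 22.3% of all tested genes passed, 10.7% higher and 11.7% lower. Counted in both directions together, the shares of Wnt genes that passed were near those of all genes. More of the passing Wnt genes were lower than higher in each genotype, while over all genes the directions were nearly even. Point estimates were below 0 for 27 of 33 genes in H2A.Z overexpression and for 18 of 33 in wild type. Over all 12293 tested genes, 5985 and 6104 estimates lay below 0. The medians of the Wnt genes were -0.36 and -0.05 on the log2 scale, against 0.02 and 0.01 over all tested genes. The libraries of the drug and solvent groups did not overlap for 14 of 33 Wnt genes in H2A.Z overexpression and 13 of 33 in wild type, beside 33.2% and 35.2% of all tested genes. Only genes that held enough reads are in these counts. The count in H2A.Z overexpression was 5 when H2A.Z 5AzadC replicate 2, H2A.Z 5AzadC replicate 3 or H2A.Z DMSO replicate 3 was left out.

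SFRP5, LRP5 and AXIN2 fell and FZD7 (ENSDARG00000027589) rose with 5AzadC in both genotypes. No Wnt gene passed in opposite directions. FZD5, fzd6, LRP6 and WNT8B passed only in H2A.Z overexpression, and FZD2, FZD8 (ENSDARG00000038569), WNT11 and both rows named FZD3 only in wild type. Of these 9 genes, LRP6 alone also passed the test of the difference between the genotypes, so the others are not shown to differ between them. Without wild-type 5AzadC replicate 2, WNT8B passed in wild type too.

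**Figure D1:**
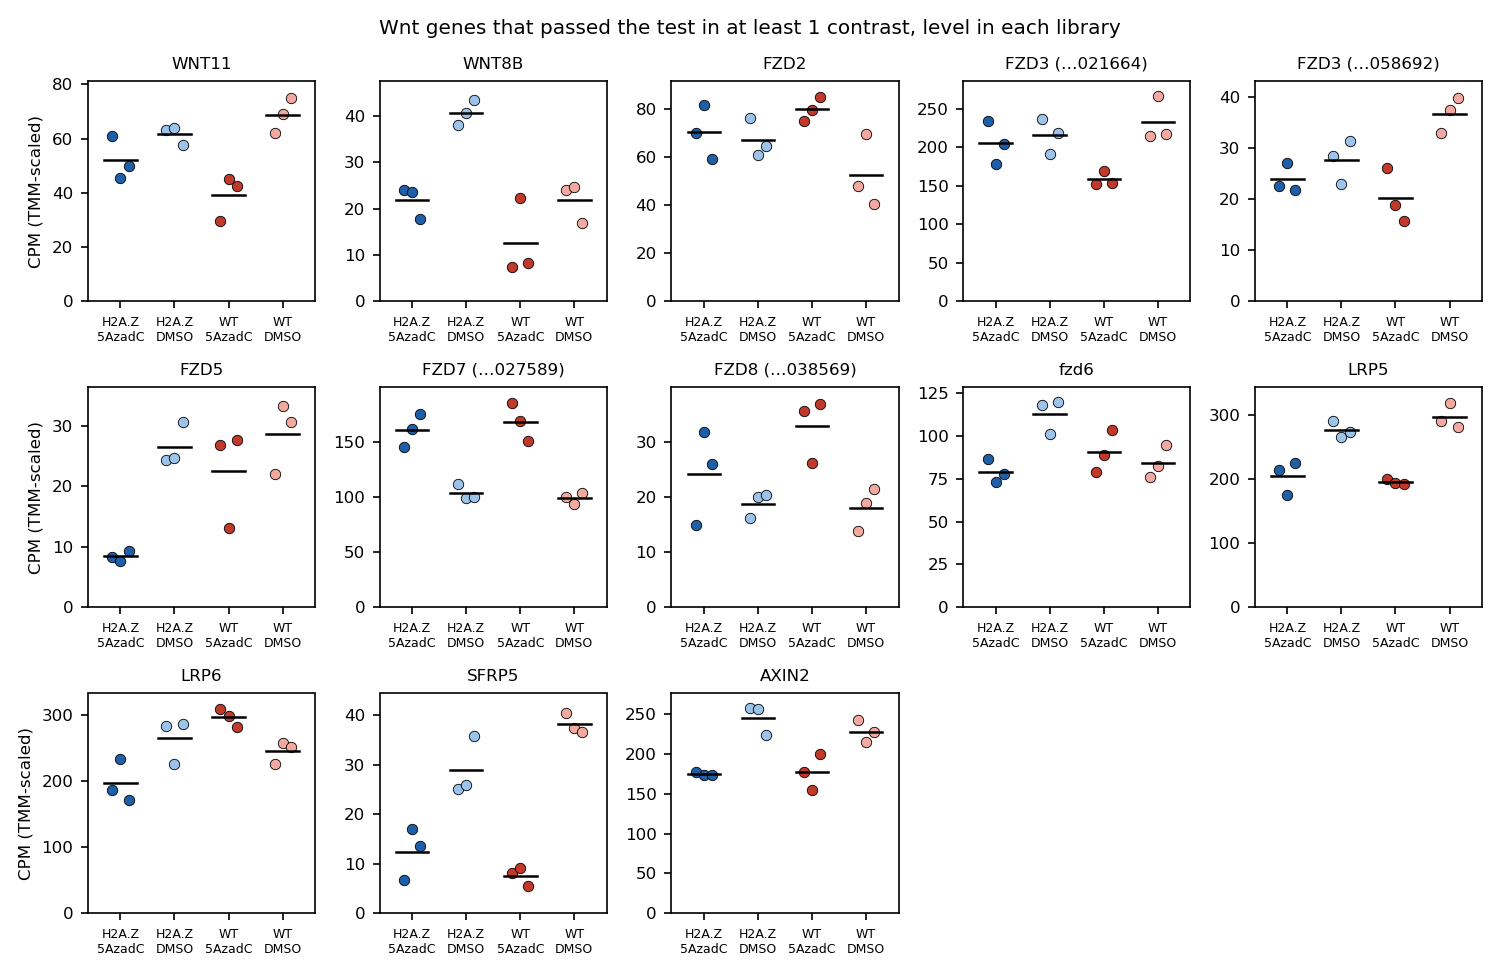
Level of the 13 Wnt genes that passed the test in at least 1 contrast, in CPM scaled by TMM factors, with 1 point per library and a line at the mean of the 3 libraries of each group. SFRP5, LRP5 and AXIN2 lie lower and FZD7 higher in the 5AzadC libraries of both genotypes, and FZD5 is lowest in H2A.Z overexpression with 5AzadC.

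Among the ligands, 15 of 26 could be tested, and 1 passed in each genotype (6.67%). Of all tested genes, 17.9% passed in H2A.Z overexpression and 22.3% in wild type. Point estimates lay below 0 for 14 of 15 ligands in H2A.Z overexpression (median -0.45) and 9 of 15 in wild type (median -0.18). Over all 12293 tested genes these counts were 5985 and 6104. Some ligands held few reads and had wide errors, such as wnt3 (mean 5.43 CPM, SE 0.85 in wild type). Whether low counts kept ligands from passing was not tested. WNT8B, a ligand of the developing brain, stood at 24.1, 23.6 and 17.7 CPM in H2A.Z overexpression embryos with 5AzadC, against 38.1, 40.6 and 43.3 CPM with DMSO. The 5AzadC libraries lay wholly below the DMSO libraries, and WNT8B fell (log2 fold change -0.91 ± 0.30, adjusted p 0.0226). Wild-type embryos had it at 7.44, 22.2 and 8.31 CPM with 5AzadC and 24.0, 24.7 and 16.9 CPM with DMSO. There 5AzadC replicate 2 lay among the DMSO libraries and the test was not passed (-0.79 ± 0.34, adjusted p 0.0909). Without that library WNT8B passed in wild type (-1.48, adjusted p 0.0051) and was higher in H2A.Z overexpression with 5AzadC (1.45, adjusted p 0.00874). The call in H2A.Z overexpression did not hold without H2A.Z 5AzadC replicate 2 (adjusted p 0.051), H2A.Z 5AzadC replicate 3 (0.123), H2A.Z DMSO replicate 2 (0.0594) or H2A.Z DMSO replicate 3 (0.0755) nor under DESeq2 (0.0571). The bulk samples cannot tell fewer cells of a type from less RNA per cell.

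WNT11 was the ligand that passed in wild type. Wnt11 ligands act in the β-catenin independent branch that drives convergence and extension. In H2A.Z overexpression embryos WNT11 stood at 61.0, 45.4 and 50.0 CPM with 5AzadC and 63.2, 64.1 and 57.8 CPM with DMSO, groups that overlapped, and did not pass (-0.25 ± 0.20, adjusted p 0.43). In wild type it stood at 29.8, 45.3 and 42.5 CPM with 5AzadC, against 62.0, 69.0 and 74.9 CPM with DMSO. The highest 5AzadC library lay well under the lowest DMSO library there, and WNT11 fell (log2 fold change -0.82 ± 0.21, adjusted p 0.00222). That call held under every alternative tried. The difference between the genotypes in this change was 0.56 on the log2 scale, with an adjusted p of 0.335. A second row of this family, wnt11f2, the gene mutated in the zebrafish silberblick line, was at 0 in all 12 libraries.

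Several ligands lay near the threshold without passing. WNT8A (ENSDARG00000052910), a ligand of the embryo's margin that posteriorizes the neural plate, averaged 32.3 ± 2.85 CPM in wild type with 5AzadC and 19.7 ± 3.98 CPM with DMSO (SD, n = 3 each), and its 3 libraries with 5AzadC all lay above the DMSO libraries. Its log2 fold change was 0.71 ± 0.30 (adjusted p 0.0774). A second row carries the name WNT8A (ENSDARG00000078507). In RefSeq's GRCz12tu annotation the gene wnt8a shares its interval with the gene wnt8-2, so reads may be shared between the rows. The log2 fold change of the second row was 0.56 ± 0.32 in wild type (adjusted p 0.229).

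In H2A.Z overexpression embryos wnt7ba (log2 fold change -1.63 ± 0.62, adjusted p 0.0578) and WNT7A (ENSDARG00000002483; -1.21 ± 0.48, adjusted p 0.0678) had large estimates and wide errors. The gene wnt7ba passed when a wild-type 5AzadC library or H2A.Z DMSO replicate 2 was left out (adjusted p 0.0439 to 0.0488). WNT5B, the ligand mutated in the zebrafish pipetail line, had the highest mean CPM of the tested ligands, without correction for gene length. It stood at 75.3, 58.9 and 75.0 CPM in H2A.Z overexpression with 5AzadC and 83.5, 106 and 76.5 CPM with DMSO, and at 99.0, 79.0 and 59.1 CPM in wild type with 5AzadC and 84.1, 78.8 and 61.3 CPM with DMSO. Its estimates were -0.36 ± 0.18, adjusted p 0.168 in H2A.Z overexpression and 0.09 ± 0.18, adjusted p 0.784 in wild type, neither past the threshold.

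WNT1 and WNT10B, ligands of the midbrain-hindbrain boundary and dorsal neural tube, have intervals that overlap in the RefSeq annotation, so how reads were split between them is uncertain. WNT1 averaged 17.1 CPM in H2A.Z overexpression with 5AzadC, 23.3 CPM with DMSO, 8.95 CPM in wild type with 5AzadC and 14.7 CPM with DMSO. WNT10B averaged 9.69, 13.1, 5.99 and 8.38 CPM in the same groups. Neither passed in any contrast.

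The Frizzled receptors held the largest number of passing genes. Of 14, 10 were tested. In H2A.Z overexpression 3 passed (1 higher, 2 lower, 30%, beside 17.9% of all genes). In wild type 5 passed (3 higher, 2 lower, 50%, beside 22.3%). FZD7 (ENSDARG00000027589), a receptor used in gastrulation, stood at 145, 162 and 175 CPM in H2A.Z overexpression with 5AzadC, against 112, 99.3 and 100.3 CPM with DMSO. Wild-type embryos had it at 185, 169 and 151 CPM with 5AzadC, against 99.9, 93.7 and 104 CPM with DMSO. Every 5AzadC library lay above every DMSO library of its genotype. The rise of FZD7 had a log2 fold change of 0.64 ± 0.14 in H2A.Z overexpression (adjusted p 0.000298) and 0.77 ± 0.14 in wild type (adjusted p 7.75e-06), and both calls held under every alternative. The other row named FZD7 (ENSDARG00000060004) had 1 read in the 12 libraries together.

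FZD5, a receptor of the zebrafish eye field, was lowest in H2A.Z overexpression embryos with 5AzadC, at 8.28, 7.66 and 9.37 CPM, against 24.3, 24.7 and 30.6 CPM with DMSO. All 3 treated libraries lay below all others of the study. FZD5 fell there (log2 fold change -1.63 ± 0.35, adjusted p 0.000285). In wild type it stood at 26.8, 13.2 and 27.7 CPM with 5AzadC and 22.1, 33.4 and 30.6 CPM with DMSO, groups that overlapped, and did not pass (-0.35 ± 0.31, adjusted p 0.473). The difference between these changes was -1.28 ± 0.47 with an adjusted p of 0.118. It passed without wild-type 5AzadC replicate 2, the lowest wild-type library (-1.55, adjusted p 0.0394).

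The rows named FZD3, a receptor of axon guidance and planar polarity, both fell in wild type. FZD3 (ENSDARG00000021664) stood at 152, 169.6 and 154 CPM with 5AzadC, against 215, 266 and 217 CPM with DMSO (log2 fold change -0.56 ± 0.12, adjusted p 0.000252). In H2A.Z overexpression it stood at 234, 179 and 205 CPM with 5AzadC and 237, 192 and 219 CPM with DMSO. The groups did not overlap in wild type and overlapped widely in H2A.Z overexpression, where the estimate was -0.069 (adjusted p 0.751). The difference between the genotypes' changes was 0.49 ± 0.17, with an adjusted p of 0.0953.

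FZD3 (ENSDARG00000058692) stood at 26.1, 18.9 and 15.7 CPM in wild type with 5AzadC, against 32.9, 37.4 and 39.8 CPM with DMSO, again without overlap. Its log2 fold change was -0.84 ± 0.29 (adjusted p 0.0241), and in H2A.Z overexpression -0.20 (adjusted p 0.697). The wild-type call did not hold without wild-type 5AzadC replicate 2 (adjusted p 0.0733), wild-type 5AzadC replicate 3 (0.119), wild-type DMSO replicate 2 (0.0631) or wild-type DMSO replicate 3 (0.0771) nor under DESeq2 (0.0505) or no filter on low counts (0.0505). Reads of such duplicated genes may be split between rows, and no source says how reads with several alignments were treated.

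FZD2 and FZD8 (ENSDARG00000038569) rose in wild type. FZD2, a Frizzled receptor, stood at 75.2, 79.8 and 85.0 CPM with 5AzadC, against 48.1, 69.6 and 40.4 CPM with DMSO, a log2 fold change of 0.59 ± 0.20 (adjusted p 0.0196). FZD8, a receptor of anterior neural tissue, stood at 35.7, 26.3 and 36.9 CPM with 5AzadC, against 13.9, 19.0 and 21.5 CPM with DMSO, a log2 fold change of 0.86 ± 0.31 (adjusted p 0.0327). The groups did not overlap for either gene. In H2A.Z overexpression the estimates were 0.067 for FZD2 (adjusted p 0.857) and 0.38 for FZD8 (adjusted p 0.447).

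Both calls were lost in leave-outs. That of FZD2 did not hold without wild-type 5AzadC replicate 3 (adjusted p 0.0631), wild-type DMSO replicate 1 (0.0813) or wild-type DMSO replicate 3 (0.15). That of FZD8 did not hold without wild-type 5AzadC replicate 1 (adjusted p 0.105), wild-type 5AzadC replicate 3 (0.107), wild-type DMSO replicate 1 (0.148) or wild-type DMSO replicate 2 (0.0641) nor under DESeq2 (0.0766) or no filter on low counts (0.0588). The other FZD8 row (ENSDARG00000045444) did not pass in either genotype, with estimates of -0.11 in H2A.Z overexpression and 0.0017 in wild type.

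The planar polarity receptor fzd6 stood at 86.5, 73.1 and 78.1 CPM in H2A.Z overexpression with 5AzadC, against 118, 101 and 119.8 CPM with DMSO. It fell by 0.51 on the log2 scale (SE 0.16, adjusted p 0.0168), with no overlap between the groups. The wild-type libraries held 78.9, 88.9 and 103 CPM with 5AzadC and 75.9, 82.2 and 94.5 CPM with DMSO and overlapped (0.098 ± 0.16, adjusted p 0.731). The DMSO libraries of H2A.Z overexpression lay above those of wild type, with a log2 difference of 0.42 ± 0.16 that did not pass (adjusted p 0.116). The call with 5AzadC did not hold without H2A.Z 5AzadC replicate 2 (adjusted p 0.0884), H2A.Z 5AzadC replicate 3 (0.0561), H2A.Z DMSO replicate 1 (0.0587) or H2A.Z DMSO replicate 3 (0.07).

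Of LRP5 and LRP6, the co-receptors of the β-catenin branch, LRP5 passed in both genotypes and LRP6 in H2A.Z overexpression. LRP5 stood at 214, 176 and 225 CPM in H2A.Z overexpression with 5AzadC, against 292, 266 and 275 CPM with DMSO. Wild-type embryos had it at 200.3, 194 and 193 CPM with 5AzadC, against 292, 319.8 and 282 CPM with DMSO. Every 5AzadC library lay below every DMSO library. LRP5 fell in both genotypes, with log2 fold changes of -0.43 ± 0.11 (adjusted p 0.00219) in H2A.Z overexpression and -0.60 ± 0.11 (adjusted p 1.16e-05) in wild type. The first of these calls did not hold without H2A.Z 5AzadC replicate 2 (adjusted p 0.0557).

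LRP6 stood at 187, 233 and 171 CPM in H2A.Z overexpression with 5AzadC, against 283, 226 and 286 CPM with DMSO, and fell (log2 fold change -0.42 ± 0.11, adjusted p 0.00471). Here 5AzadC replicate 2 lay above DMSO replicate 2, the only overlap among the Wnt genes that passed in this contrast, and the call did not hold without H2A.Z 5AzadC replicate 3 (adjusted p 0.0777). In wild type LRP6 stood at 309.7, 298 and 282 CPM with 5AzadC, against 226, 258 and 252 CPM with DMSO. The wild-type estimate was above 0 and missed the threshold (0.27 ± 0.11, adjusted p 0.0668). The difference between the genotypes' changes was -0.70 ± 0.16 (adjusted p 0.00389), and this held under every alternative. LRP6 was the only Wnt gene of 33 to pass the test of that difference (3.03%). Of all tested genes 3.75% passed it, 1.9% with the higher and 1.85% with the lower log2 fold change in H2A.Z overexpression.

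Of the antagonists, SFRP5, a secreted protein that binds Wnt ligands, had the largest change of the Wnt genes that passed. It stood at 6.77, 17.1 and 13.5 CPM in H2A.Z overexpression with 5AzadC, against 25.1, 25.9 and 35.7 CPM with DMSO. In wild type it stood at 8.19, 9.06 and 5.54 CPM with 5AzadC, against 40.5, 37.4 and 36.5 CPM with DMSO. The groups did not overlap in either genotype. SFRP5 fell with log2 fold changes of -1.17 ± 0.32 (adjusted p 0.00618) in H2A.Z overexpression and -2.30 ± 0.35 (adjusted p 2.61e-07) in wild type. The difference between these, 1.13 ± 0.49, did not pass (adjusted p 0.209). The call in H2A.Z overexpression did not hold without H2A.Z 5AzadC replicate 1 (adjusted p 0.0567) or H2A.Z DMSO replicate 3 (0.0527), while that in wild type held throughout.

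SFRP1 (ENSDARG00000035521), of the same family, did not pass. It averaged 53.9 ± 12.7 CPM in H2A.Z overexpression with 5AzadC and 51.9 ± 11.8 CPM with DMSO, and 51.9 ± 8.63 CPM in wild type with 5AzadC and 43.8 ± 7.01 CPM with DMSO (SD, n = 3 each). The remaining tested Sfrp gene, sfrp2l, had estimates of 0.10 in H2A.Z overexpression and -0.05 in wild type. No Dickkopf gene held enough reads to be tested, and dkk1b, the gene of the head inducer Dickkopf1, was at 0 in all 12 libraries.

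AXIN2, the Axin gene that β-catenin signalling itself switches on as negative feedback, fell in both genotypes. It stood at 178, 173 and 173 CPM in H2A.Z overexpression with 5AzadC, against 258, 256 and 224 CPM with DMSO. Wild-type embryos had it at 178, 155 and 200.4 CPM with 5AzadC, against 242, 215 and 228 CPM with DMSO. The groups did not overlap in either genotype. The log2 fold changes were -0.50 ± 0.11 (adjusted p 0.000834) in H2A.Z overexpression and -0.36 ± 0.12 (adjusted p 0.0159) in wild type. The wild-type call did not hold without wild-type 5AzadC replicate 2 (adjusted p 0.126) or wild-type DMSO replicate 1 (0.0884).

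AXIN1, the constitutive scaffold, and LEF1, a transcription factor that binds DNA with β-catenin, did not pass in any contrast. AXIN1 averaged 164 ± 15.7 CPM in H2A.Z overexpression with 5AzadC and 178 ± 16.3 CPM with DMSO, and 172 ± 9.82 CPM in wild type with 5AzadC and 168 ± 25.2 CPM with DMSO (SD, n = 3 each). LEF1 averaged 45.3 ± 10.2 and 47.4 ± 5.73 CPM in the same groups of H2A.Z overexpression and 47.2 ± 16.0 and 40.0 ± 4.30 CPM in those of wild type. Their estimates with 5AzadC against DMSO lay within -0.12 and 0.24 on the log2 scale.

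**Figure D2:**
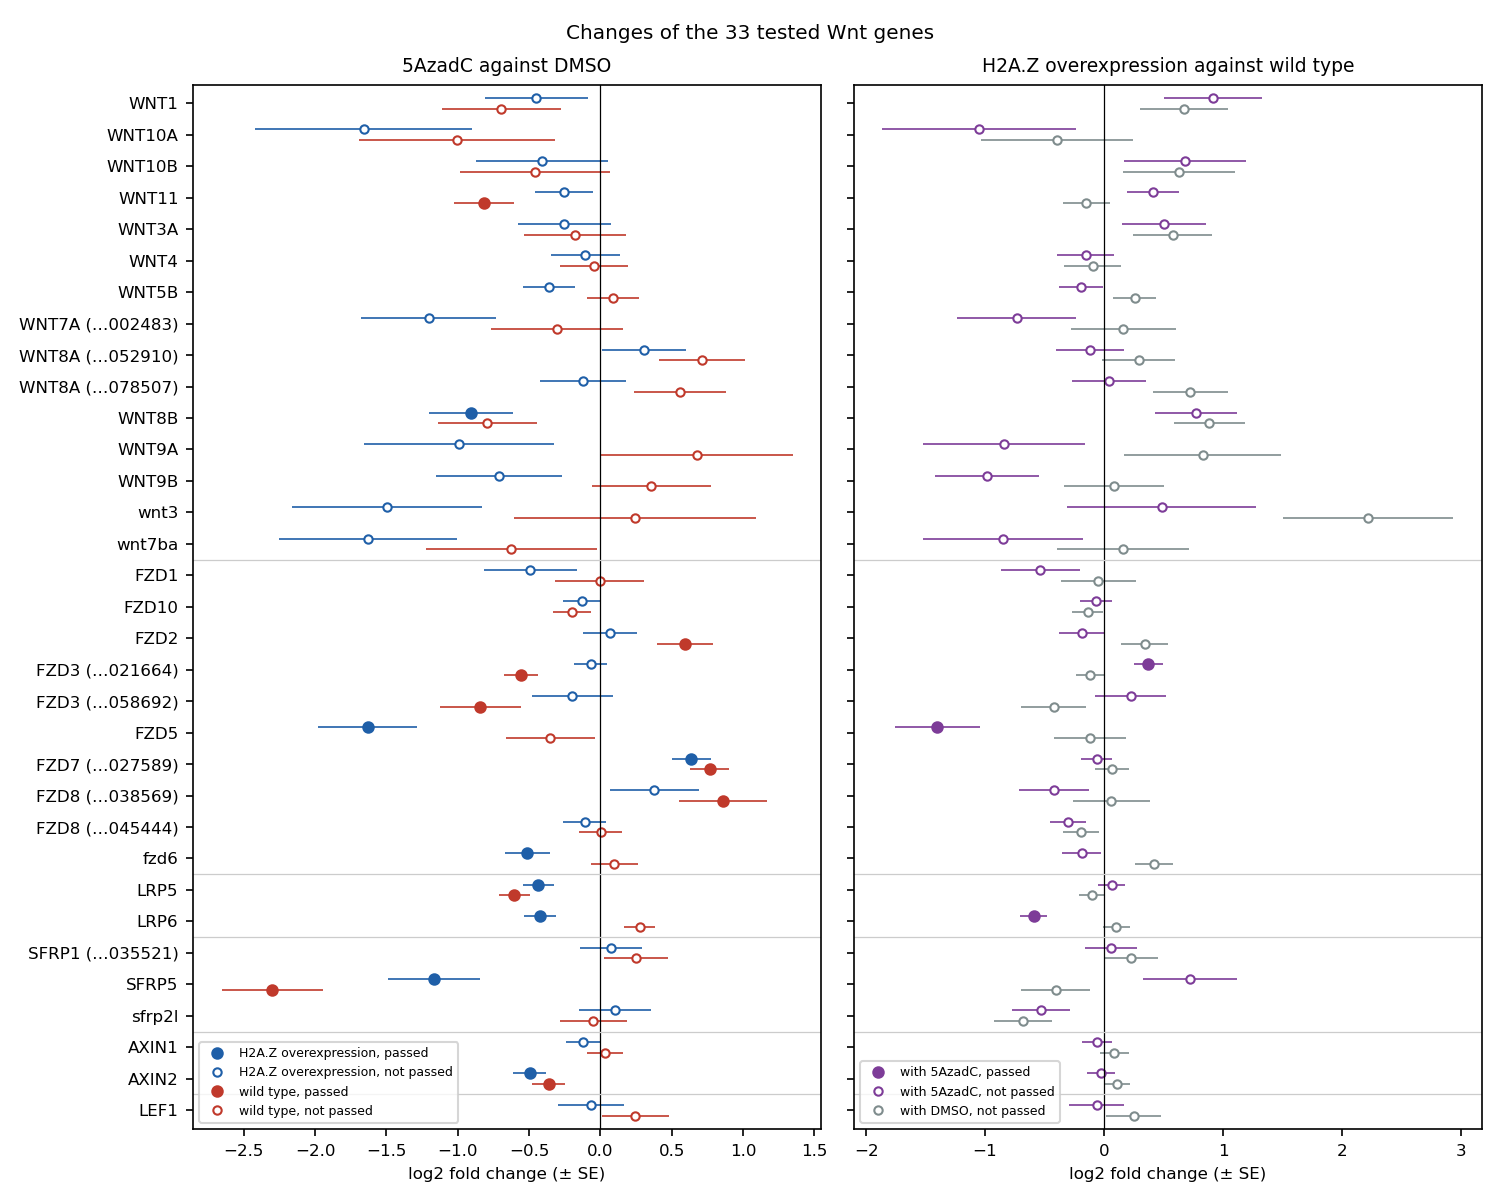
Log2 fold changes with standard errors of the 33 tested Wnt genes, grouped by role, for 5AzadC against DMSO in each genotype (left) and for H2A.Z overexpression against wild type with each treatment (right), with filled points for adjusted p under 0.05. In H2A.Z overexpression 27 of the 33 points on the left lie below 0, beside 5985 of all 12293 tested genes. With DMSO no point on the right is filled.

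Without the drug, no Wnt gene passed between the genotypes by edgeR (0 of 33, where 5.32% of all tested genes passed, 2.73% higher and 2.59% lower), nor by DESeq2. An unadjusted p under 0.05 by edgeR was found for 5 of 33, beside 17.1% of all tested genes. The median difference was 0.10 on the log2 scale with 21 of 33 estimates above 0, beside 6138 of all 12293 tested genes. The libraries did not overlap for 8 of 33 genes, a count to be read against 21.5% of all tested genes. The lowest adjusted p belonged to wnt3, a ligand of the β-catenin branch. It stood at 10.5, 11.2 and 14.4 CPM in H2A.Z overexpression and 3.16, 0 and 4.56 CPM in wild type (log2 fold change 2.22 ± 0.72, adjusted p 0.0506). WNT8B followed, with 0.89 ± 0.30 (adjusted p 0.0635). With only the compared groups in the fit both genes passed (adjusted p 0.0159 for wnt3 and 0.0272 for WNT8B). The same 2 genes passed when any of the 3 wild-type 5AzadC libraries was left out, and wnt3 alone without wild-type DMSO replicate 3 (adjusted p 0.0448). The antagonist sfrp2l, lower in estimate in H2A.Z overexpression with DMSO (-0.68 ± 0.25, adjusted p 0.0913), passed without wild-type DMSO replicate 2 (-0.88, adjusted p 0.0392) or H2A.Z DMSO replicate 3 (-0.92, adjusted p 0.0441).

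With 5AzadC, 3 of 33 Wnt genes differed between the genotypes (9.09%), 1 higher and 2 lower in H2A.Z overexpression, where 15.6% of all tested genes passed, 8% higher and 7.61% lower. The libraries of the genotypes did not overlap for 7 of 33, beside 30.4% of all tested genes. LRP6 was lower in H2A.Z overexpression, at 197 ± 32.0 CPM against 296 ± 14.1 CPM in wild type (SD, n = 3 each; log2 fold change -0.59 ± 0.11, adjusted p 6.59e-05). FZD5 was also lower, at 8.44 ± 0.867 against 22.6 ± 8.14 CPM (-1.40 ± 0.36, adjusted p 0.00316). FZD3 (ENSDARG00000021664) was higher, at 206 ± 27.8 against 159 ± 9.62 CPM (0.37 ± 0.12, adjusted p 0.0261). The calls of LRP6 and FZD5 held under every alternative, but that of FZD3 did not hold without H2A.Z 5AzadC replicate 1 (adjusted p 0.178), H2A.Z 5AzadC replicate 3 (0.0669), wild-type 5AzadC replicate 1 (0.0962) or wild-type 5AzadC replicate 3 (0.0727) nor under DESeq2 (0.0851).

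The comparisons share libraries, since the 5AzadC libraries of each drug contrast also enter the comparison of genotypes with 5AzadC, and the DMSO libraries that with DMSO. The authors' deposited table of their own comparisons, made with DESeq2, gives adjusted p-values under 0.05 in H2A.Z overexpression for 7 of the 8 Wnt genes that passed here, all but WNT8B (0.059). For wild type, the authors' deposited table has 6 of the 9 under 0.05. FZD2 (0.053), FZD3 (ENSDARG00000058692; 0.0536) and FZD8 (ENSDARG00000038569; 0.0808) lie above it in the authors' deposited table.

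The remaining 22 Wnt genes were too scarce for the test. Of these, 5 had no read in any library: dkk1b, FZD4, wnt11f2, and the rows FZD9 (ENSDARG00000014673) and SFRP1 (ENSDARG00000057678). A count of 0 in a single library allows up to 3, which is 1.56 to 2.77 CPM at this depth, and less over several libraries together. This limit holds only where reads of the gene could be counted under its row, which the sources do not state. The 5 with the most reads are given as raw counts, with ratios corrected for library size and 95% exact intervals that cover counting error only. None of the scarce genes passed when the fit was repeated without the low-count filter.

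The antagonist gene dkk2 had 3, 7 and 7 reads in H2A.Z overexpression with 5AzadC and 5, 7 and 6 with DMSO, a ratio of 0.785 (0.380 to 1.61). Wild-type embryos had 2, 3 and 1 reads with 5AzadC, against 13, 11 and 8 with DMSO, a ratio of 0.250 (0.0855 to 0.606). All treated wild-type libraries lay below all wild-type controls. WNT7B had 4, 2 and 6 reads in H2A.Z overexpression with 5AzadC and 1, 6 and 3 with DMSO (ratio 0.997, 0.395 to 2.58), and 8, 2 and 0 reads in wild type with 5AzadC, against 4, 11 and 15 with DMSO (ratio 0.444, 0.194 to 0.934), groups that overlapped.

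WNT6, a ligand of the surface ectoderm in the chick, had 5, 0 and 5 reads in H2A.Z overexpression with 5AzadC and 10, 7 and 6 with DMSO (ratio 0.361, 0.154 to 0.789). In wild type it had no read in the 3 libraries with 5AzadC, against 0, 8 and 2 with DMSO. The exact interval of this ratio ran between 0 and 0.595, and 1 DMSO library was also at 0. WNT16 had 3, 0 and 0 reads in H2A.Z overexpression with 5AzadC and 2, 3 and 4 with DMSO, and 0, 5 and 2 in wild type with 5AzadC and 8, 8 and 6 with DMSO, with ratios of 0.277 (0.0482 to 1.11) and 0.424 (0.153 to 1.03), so that both intervals include 1. WNT7A (ENSDARG00000044827) totalled 15, 14, 15 and 23 reads in H2A.Z overexpression with 5AzadC, H2A.Z overexpression with DMSO, wild type with 5AzadC and wild type with DMSO.

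**Figure D3:**
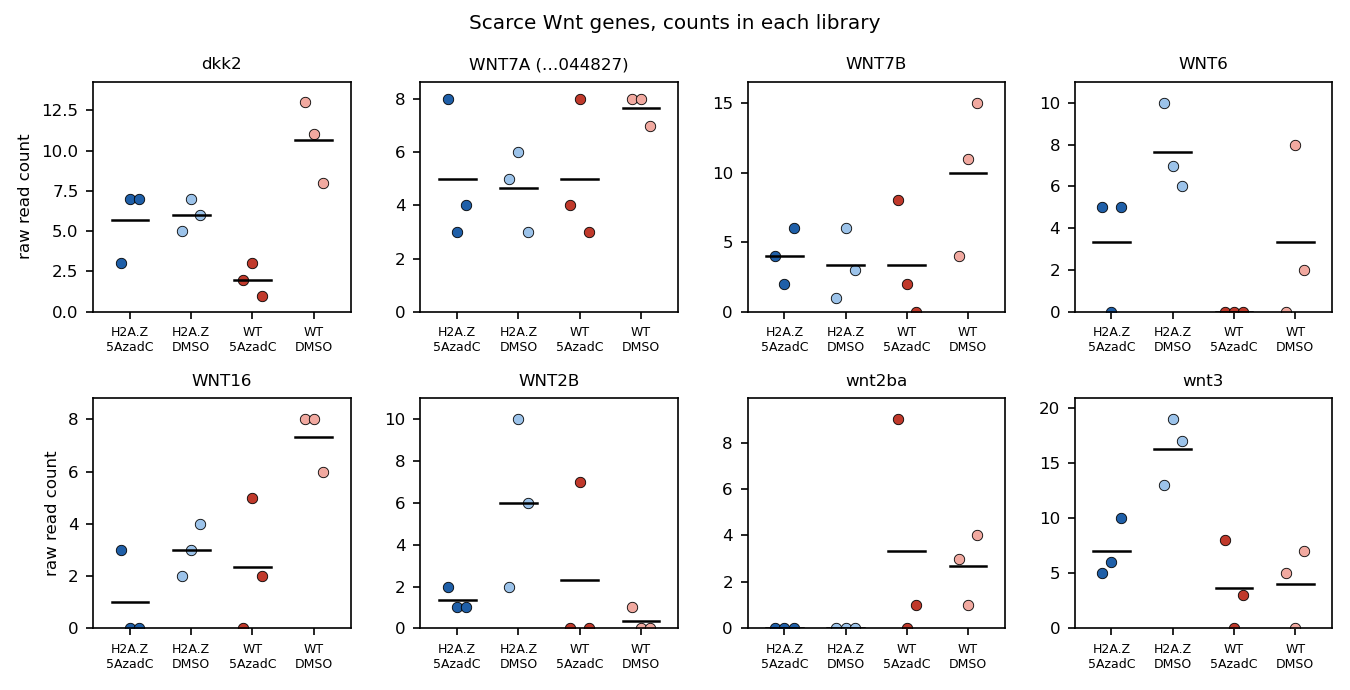
Raw read counts in each library of 8 Wnt genes with few reads, all untested but wnt3, with 1 point per library and a line at the group mean. WNT6 is at 0 in the 3 wild-type libraries with 5AzadC, dkk2 is lowest in the same libraries, and wnt2ba is at 0 in all 6 H2A.Z overexpression libraries. The counts are not corrected for library size, and the wild-type libraries with 5AzadC were smaller than those with DMSO.

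Other genes of the pathway, 96 by a list of names, passed in both directions with 5AzadC. Of 68 that were tested, 15 passed in H2A.Z overexpression (7 higher, 8 lower; 22.1%, beside 17.9% of all genes) and 29 in wild type (11 higher, 18 lower; 42.6%, beside 22.3%). The medians were -0.05 in H2A.Z overexpression and -0.14 in wild type on the log2 scale. The first count was 9 when H2A.Z 5AzadC replicate 2 or 3 was left out. The list and its parts below were drawn up with earlier results of these data known. Their shares beside those of all genes are a description, not a test. Of the 68, only CCND1, CELSR2 and msgn1 passed the test of the difference between the genotypes (4.41%, beside 3.75% of all genes). Other genes named below for 1 genotype alone are thus not shown to differ between them.

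Secretion factors and extracellular modulators passed mostly downward. Of 13 tested, 1 was higher and 3 lower in H2A.Z overexpression (30.8%, beside 17.9% of all genes), and 1 was higher and 6 lower in wild type (53.8%, beside 22.3%). ZNRF3, a ubiquitin ligase that removes Frizzled receptors from the membrane, fell in both (log2 fold change -0.74 ± 0.19 and -0.58 ± 0.18 in H2A.Z overexpression and wild type). LGR4, the receptor of R-spondins, which restrain that ligase, fell as well (-0.36 ± 0.12 in H2A.Z overexpression and -0.61 ± 0.13 in wild type). So did trabd2a, a membrane protease that inactivates Wnt ligands (-0.91 ± 0.26 and -1.01 ± 0.23 in the same order), although the first of these calls did not hold without H2A.Z 5AzadC replicate 2 (adjusted p 0.0742). WIF1, KREMEN1 and NOTUM, all of which restrain Wnt signalling outside the cell, fell in wild type by 1.09, 1.08 and 1.01 on the log2 scale. The glypican GPC4 rose in both genotypes, by 0.31 in H2A.Z overexpression and 0.30 in wild type.

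Of 23 tested genes of intracellular transduction, 3 were higher and none lower in H2A.Z overexpression (13%, beside 17.9% of all genes), and 3 were higher and 3 lower in wild type (26.1%, beside 22.3%). The β-catenin genes CTNNB1 and ctnnb2 and the casein kinase gene csnk1da rose in both genotypes. CTNNB1 rose by 0.41 ± 0.077 in H2A.Z overexpression (adjusted p 3.55e-05) and 0.44 ± 0.077 in wild type (adjusted p 5.00e-06). For ctnnb2 these were 0.36 ± 0.09 and 0.57 ± 0.09, and for csnk1da 0.71 ± 0.13 and 1.09 ± 0.13. TCF7L2, a nuclear partner of β-catenin, stood at 19.4, 20.6 and 16.6 CPM in wild type with 5AzadC, against 62.6, 52.9 and 33.2 CPM with DMSO, and fell (-1.39 ± 0.27, adjusted p 2.79e-05). TCF7L1 and GSK3B fell in wild type by 0.45 and 0.42.

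Planar polarity genes and alternative Wnt receptors passed mostly downward too. Of 14 tested, none was higher and 4 were lower in H2A.Z overexpression (28.6%, beside 17.9% of all genes), and 1 was higher and 6 lower in wild type (50%, beside 22.3%). The polarity cadherin celsr1b averaged 157 ± 19.7 CPM in H2A.Z overexpression with 5AzadC and 257 ± 11.2 CPM with DMSO, and 152 ± 9.30 CPM in wild type with 5AzadC and 281 ± 14.6 CPM with DMSO (SD, n = 3 each). It fell by 0.70 and 0.89 on the log2 scale in H2A.Z overexpression and wild type. CELSR2 fell more in H2A.Z overexpression (-0.72 ± 0.082, adjusted p 8.86e-11) than in wild type (-0.33 ± 0.082, adjusted p 0.00127), and the difference passed (-0.39 ± 0.12, adjusted p 0.0407). This last call was lost in 11 of the alternatives, with adjusted p up to 0.114. VANGL2, the core polarity gene mutated in the zebrafish trilobite line, fell in wild type (-0.38 ± 0.084, adjusted p 0.000333), as did the receptors RYK (-0.51) and ROR1 (-0.80).

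Known targets and feedback genes passed in both directions. Of 18 tested, 3 were higher and 1 lower in H2A.Z overexpression (22.2%, beside 17.9% of all genes), and 6 were higher and 3 lower in wild type (50%, beside 22.3%). NKD1, a feedback inhibitor that binds Dishevelled, fell with AXIN2: it averaged 72.2 ± 3.13 CPM in H2A.Z overexpression with 5AzadC and 107 ± 19.0 CPM with DMSO, and 36.5 ± 6.83 CPM in wild type with 5AzadC and 90.0 ± 15.8 CPM with DMSO (SD, n = 3 each). Its log2 fold changes were -0.57 ± 0.17 (adjusted p 0.0152) and -1.31 ± 0.20 (adjusted p 1.25e-07) in H2A.Z overexpression and wild type. The first did not hold without H2A.Z 5AzadC replicate 3 (adjusted p 0.0668) or H2A.Z DMSO replicate 3 (0.154). The ventral repressor gene vent, in contrast, rose in both genotypes, by 0.93 ± 0.17 in H2A.Z overexpression and 0.72 ± 0.19 in wild type. In H2A.Z overexpression msgn1 rose as well (0.53 ± 0.15, adjusted p 0.00708), a call that did not hold without H2A.Z 5AzadC replicate 3 (adjusted p 0.136) or H2A.Z DMSO replicate 1 (0.052). The relatives of vent, vox (1.02) and ved (1.04) rose in wild type, as did MYC (ENSDARG00000007241; mean 61.2 CPM with 5AzadC and 30.5 CPM with DMSO), tbx6 (0.55) and sp5l (0.61).

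Between the genotypes, 16 of 68 of these pathway genes passed with 5AzadC (10 higher, 6 lower in H2A.Z overexpression; 23.5%, beside 15.6% of all genes) and 2 with DMSO (2.94%, beside 5.32%). With 5AzadC, NKD1 was higher in H2A.Z overexpression (0.99 ± 0.20, adjusted p 0.000147), as was WLS, the carrier of Wnt ligands to the cell surface (0.64 ± 0.12, adjusted p 6.07e-05), and VANGL2 (0.39 ± 0.084, adjusted p 0.000459). The mesoderm regulator msgn1 (0.74 ± 0.15, adjusted p 0.000223) and vent (0.63 ± 0.17, adjusted p 0.00587) were higher as well. BCL9L, a co-activator of β-catenin (-0.62 ± 0.15, adjusted p 0.00152), ctnnb2 (-0.33 ± 0.089, adjusted p 0.00501) and CELSR2 (-0.35 ± 0.083, adjusted p 0.00138) were lower. So were MYC (ENSDARG00000007241; -0.67 ± 0.23, adjusted p 0.0363) and DVL3 (ENSDARG00000015707; -0.42 ± 0.15, adjusted p 0.0366), which encodes a Dishevelled protein that relays the signal from Frizzled. The call of MYC did not hold without H2A.Z 5AzadC replicate 1 (adjusted p 0.0601), H2A.Z 5AzadC replicate 2 (0.0788), H2A.Z 5AzadC replicate 3 (0.128), wild-type 5AzadC replicate 2 (0.159) or wild-type 5AzadC replicate 3 (0.0855) nor under DESeq2 (0.0764) or no filter on low counts (0.069). That of DVL3 did not hold without H2A.Z 5AzadC replicate 1 (adjusted p 0.0602), H2A.Z 5AzadC replicate 2 (0.0587), H2A.Z 5AzadC replicate 3 (0.148), wild-type 5AzadC replicate 1 (0.166) or wild-type 5AzadC replicate 2 (0.0603) nor under DESeq2 (0.0565) or no filter on low counts (0.0854). With DMSO the 2 genes were trabd2a (-0.85 ± 0.23, adjusted p 0.0124) and TNKS, a tankyrase that marks Axin for degradation (2.07 ± 0.59, adjusted p 0.0204). The call of trabd2a did not hold without H2A.Z DMSO replicate 2 (adjusted p 0.0626), H2A.Z DMSO replicate 3 (0.0836), wild-type DMSO replicate 1 (0.0538) or wild-type DMSO replicate 2 (0.0811). That of TNKS did not hold without H2A.Z DMSO replicate 1 (adjusted p 0.139), wild-type DMSO replicate 2 (0.0806) or wild-type DMSO replicate 3 (0.0763) nor under DESeq2 (0.0561).

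**Figure D4:**
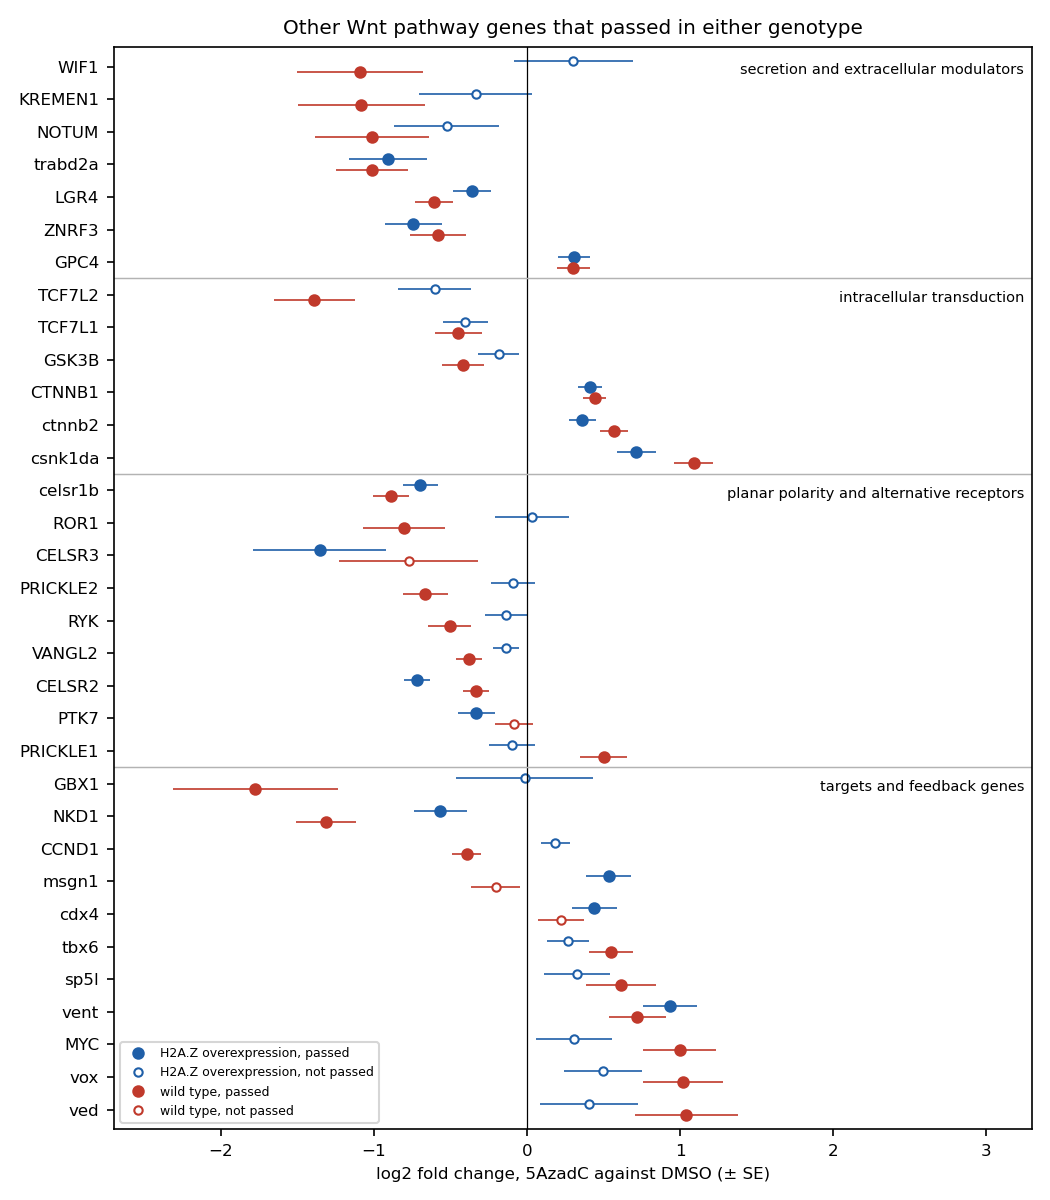
Log2 fold changes with standard errors, 5AzadC against DMSO in each genotype, of the 33 other Wnt pathway genes that passed in either genotype, grouped by list, with filled points for adjusted p under 0.05. The extracellular modulators and planar polarity genes lie mostly below 0, the β-catenin genes above 0, and the targets on both sides.

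Markers of regions in which these genes act also differed between the groups, and their part in the results above was not tested. These lists too were drawn up with earlier results of these data known, so their shares are a description only. The 7 listed genes of forebrain and eye, where WNT8B, FZD5 and FZD8 act, summed to 84.3 to 119 CPM in H2A.Z overexpression with 5AzadC, 183 to 194 CPM with DMSO, 72.4 to 90.1 CPM in wild type with 5AzadC and 123 to 145 CPM with DMSO. Of 6 tested, 2 fell in H2A.Z overexpression (33.3%, beside 17.9% of all genes) and 3 in wild type (50%, beside 22.3%). Among them were rx1 and foxg1b in both. Unlike these markers, FZD8 (ENSDARG00000038569) rose in wild type (log2 fold change 0.86, adjusted p 0.0327), a call lost in leave-outs. Its estimate in H2A.Z overexpression was 0.38 (adjusted p 0.447). The 7 listed genes of the midbrain-hindbrain boundary summed to 86.4 to 97.2 CPM in H2A.Z overexpression with 5AzadC, 121 to 167 CPM with DMSO, 70.2 to 105 CPM in wild type with 5AzadC and 121 to 129 CPM with DMSO. Of 4 tested, both rows named PAX2 fell in each genotype, and PAX8 rose in wild type (log2 fold change 0.96). Those that passed were 50% in H2A.Z overexpression, beside 17.9%, and 75% in wild type, beside 22.3%. The listed gene gbx2 was at 0 in all libraries.

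Tailbud and presomitic mesoderm, the source of posterior Wnt ligands, gave 756 to 884 CPM over 10 listed genes in H2A.Z overexpression with 5AzadC and 661 to 742 CPM with DMSO, and 694 to 760 CPM in wild type with 5AzadC and 623 to 683 CPM with DMSO. Of 9 tested, 2 rose in each genotype (22.2%, beside 17.9% of all genes in H2A.Z overexpression and 22.3% in wild type). Of the 9, 6 also stand among the pathway targets described above. Muscle markers, 7 genes, summed to 184 to 236 CPM in H2A.Z overexpression with 5AzadC, 214 to 299 CPM with DMSO, 225 to 266 CPM in wild type with 5AzadC and 392.3 to 413 CPM with DMSO. Of 6 tested, 1 fell with 5AzadC in H2A.Z overexpression (16.7%, beside 17.9%) and 4 in wild type (66.7%, beside 22.3%). With DMSO, 2 were lower in H2A.Z overexpression than in wild type (33.3%, beside 5.32%). The 10 epidermal and periderm genes summed to 3508 to 4419.7 CPM in H2A.Z overexpression with 5AzadC, 3047 to 3896 CPM with DMSO, 8162 to 9945 CPM in wild type with 5AzadC and 4576 to 5247 CPM with DMSO, with epcam at 0 throughout. Of 7 tested, 2 rose with 5AzadC in H2A.Z overexpression (28.6%, beside 17.9%) and 6 in wild type (85.7%, beside 22.3%). The test of the difference was passed by 5 (71.4%, beside 3.75%), all with the lower log2 fold change in H2A.Z overexpression. Between genotypes, 6 were lower in H2A.Z overexpression with 5AzadC (85.7%, beside 15.6%). With DMSO 4 were higher and 1, krt4, was lower (log2 fold change -1.03), together 71.4%, beside 5.32%. There the sum and most of the passing genes went in opposite directions. Of 3 notochord markers tested, 1 passed with 5AzadC in H2A.Z overexpression (33.3%, beside 17.9%) and 0 in wild type. Of 5 neural crest markers tested, 0 passed in H2A.Z overexpression and 1 in wild type (20%, beside 22.3%).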

How the data were processed

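The authors deposited 1 table of raw read counts per gene for the 12 libraries, without normalization. The submitters' processing notes name STAR, Subread, featureCounts 2.0.3, DESeq2 1.22.2, deepTools and the build GRCz11. The sources used here do not state the release of the annotation, whether strand was used, or how reads with several alignments were counted. The authors' deposited tables of comparisons hold log2 fold changes and adjusted p-values from DESeq2, and were used only where named. No rows were summed or removed before library sizes were computed.

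Counts were analysed with edgeR 4.0.16 in R 4.3.3: TMM factors, the filterByExpr low-count filter, and robust quasi-likelihood fits of all 12 libraries with 1 coefficient per group. The 5 contrasts were 5AzadC against DMSO in each genotype, H2A.Z overexpression against wild type with each treatment, and the difference between the drug contrasts. Benjamini-Hochberg adjustment ran over all 12293 tested genes, which hold 98.5% of the counts, with a threshold of 0.05. The SE of a log2 fold change was taken as its size over the root of F, an approximation. No library repeated another. The alternatives were RLE and upper quartile factors, DESeq2 1.42.0, no low-count filter, a replicate block, only the groups compared, and each library left out. The procedure was run on simulated data with the same spread for every gene and changes larger than most found here. That run does not show how well changes of the present size are recovered.

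The Wnt genes and the gene lists were chosen with earlier results of these data known. Named were all Wnt genes that passed, the tested gene of each role with the highest mean CPM, the 5 untested Wnt genes with the most reads, and per contrast the 5 pathway genes of each direction with the smallest p. Further pathway and scarce genes were named after their values were seen. RefSeq's GRCz12tu gene table was used for names and neighbours only, and matched 36 of the Wnt genes whose symbol is their own. No sequences are printed, and no coordinates, since the builds differ.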

Additional observations from a re-analysis of the deposited data

Results flagged for a closer look

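The difference between the drug's effects in H2A.Z overexpression and wild type was tested with adjustment over all tested genes. It was passed by 1 of 33 Wnt genes (3.03%) and 3 of 68 other pathway genes (4.41%). Both shares were near the 3.75% of all 12293 tested genes that passed. LRP6 had a log2 difference of -0.70 ± 0.16 (adjusted p 0.00389), with estimates of -0.42 in H2A.Z overexpression and 0.27 in wild type. CCND1, a cyclin gene that drives entry into S phase, had a difference of 0.58 ± 0.13 (adjusted p 0.00344), with 0.19 in H2A.Z overexpression and -0.39 in wild type. For msgn1, a regulator of presomitic mesoderm, the difference was 0.74 ± 0.22 (adjusted p 0.0353), with 0.53 in H2A.Z overexpression and -0.20 in wild type. For CELSR2 it was -0.39 ± 0.12 (adjusted p 0.0407), with -0.72 in H2A.Z overexpression and -0.33 in wild type. The calls of LRP6 and CCND1 held under every alternative, those of msgn1 and CELSR2 were lost in 8 and 11 of them, with adjusted p up to 0.19 and 0.114. The count of 3 pathway genes was 1 without wild-type 5AzadC replicate 3, wild-type DMSO replicate 1 or 3, H2A.Z 5AzadC replicate 3, or H2A.Z DMSO replicate 1 or 3. Beyond leaving out 1 library at a time, no test for single outlying libraries was run on these groups of 3.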

How the results depend on the processing

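Leaving out 1 library at a time, the count of Wnt genes that passed ran between 5 and 9 for 5AzadC in H2A.Z overexpression, 6 and 9 for 5AzadC in wild type, 2 and 4 between genotypes with 5AzadC, 0 and 2 with DMSO, and 1 and 2 for the difference between the drug's effects. Those of the other pathway genes ran between 9 and 16, 21 and 29, 11 and 17, 0 and 2, and 1 and 3 in the same order. The second gene in the last Wnt count was FZD5. Between genotypes with DMSO, where 0 Wnt genes passed, RLE factors gave 1 (wnt3), upper quartile factors gave 1, the replicate block gave 1, and the fit of only the groups compared gave 2; DESeq2 gave 1 pathway gene in place of 2. DESeq2 called 7 Wnt genes in each drug contrast, of 30 with an adjusted p in H2A.Z overexpression and 36 in wild type. The edgeR counts are of 33. The share of all genes that passed under each alternative is not given here, so these counts stand without that background. The difference between the drug's effects uses all groups, so that last fit was not run for it.

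Same-numbered libraries did not deviate together (18 pairs, r between -0.0268 and 0.0243, none over 0.1), so the replicate numbers were not taken as pairs. With the replicate block the Wnt counts were 8, 9, 3, 1 and 1 in the order above, and those of the other pathway genes 16, 28, 16, 2 and 3.

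Each estimate that changed sign had not passed in the contrast concerned. Leaving out 1 library at a time, the log2 fold change with 5AzadC in H2A.Z overexpression ran between -0.17 and 0.023 for FZD3 (ENSDARG00000021664), -0.26 and 0.081 for LEF1, and -0.13 and 0.23 for SFRP1 (ENSDARG00000035521). In wild type it ran between -0.019 and 0.46 for LEF1 and -0.11 and 0.25 for WNT5B. The cause of these shifts was not tested. With at most 1904063 counts a library, 22 Wnt genes, all 5 Dickkopf genes among them, held too few reads to be tested. Whether the 5 Wnt genes without any read were missed through depth was not tested.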

Other observations

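The raw reads of 3 scarce Wnt genes, chosen after their values were seen, were uneven between groups. The ligand gene wnt2ba had 0 reads in all 6 H2A.Z overexpression libraries, against 9, 0 and 1 reads in wild type with 5AzadC and 3, 1 and 4 with DMSO. The exact 95% interval of the ratio of H2A.Z overexpression to wild type ran between 0 and 0.328 with 5AzadC and 0 and 0.692 with DMSO. Of its 18 wild-type reads, 9 came from 1 library. Without the low-count filter it did not pass, with an adjusted p of 0.098 with 5AzadC and 0.343 with DMSO. WNT2B (ENSDARG00000032234) had 2, 10 and 6 reads in H2A.Z overexpression with DMSO, against 1, 0 and 0 in wild type with DMSO, a ratio of 21.3 with an exact 95% interval of 3.36 to 885. With 5AzadC it had 2, 1 and 1 reads in H2A.Z overexpression and 0, 7 and 0 in wild type. SFRP2 had 2, 0 and 0 reads in H2A.Z overexpression with 5AzadC, against 5, 7 and 1 with DMSO, a ratio of 0.128 (0.0140 to 0.565). In wild type it had 0, 2 and 2 with 5AzadC and 1, 0 and 2 with DMSO. These intervals cover counting error only.

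The signal recognition particle RNA rn7sl1 took 6.57% to 8.69% of the counts in H2A.Z overexpression with 5AzadC, 7.28% to 9.02% with DMSO, 9.26% to 10.1% in wild type with 5AzadC and 9.13% to 9.29% with DMSO.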
